A study of Homo sapiens with 6 samples.

Results

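The 78 cytosolic ribosomal protein genes described here were taken by name from a table of 27134 genes measured in KM12, a human cell line established from a colorectal cancer. A gene was included if it is protein-coding, is called RPSA, RPLP0 to RPLP2, or RPL or RPS with a number and an optional final A, L or X, and had a mean normalised count of at least 20 over the 6 libraries. Of 79 genes with such a name, 78 reached that mean: 43 encode proteins of the large subunit, 32 of the small subunit and 3 of the P-stalk. RPL3L, a copy of RPL3 known from striated muscle, was the 1 gene left out, with a mean of 2.40, and RPS10 lay nearest above the limit with a mean of 37.1. The rule itself used no difference between the groups, but members were chosen with earlier results of these data known.

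Total RNA was sequenced, and how mRNA was selected is not given in the sources used here. One group of 3 libraries came from KM12 cells that overexpress CDO1, cysteine dioxygenase, which oxidises cysteine. The other 3 libraries came from mock KM12 cells. All 6 libraries are labelled as passage 10 to 15, and the labels name neither the vector and promoter, nor whether the overexpressing line is 1 clone, nor whether replicates were separate cultures. The spread behind the p-values may therefore be technical.

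CDO1 had normalised counts of 2484, 2336 and 2333 in the overexpressing libraries, and of 68.1, 0 and 0 in the mock libraries, so each library matched its label. Recovered reads totalled 17516640 to 22198173 per library. Of 10 colorectal epithelial markers, 9 were past the threshold and higher with CDO1, and KRT19 was not (log2 fold change -0.07). The summed normalised count of all 10 was 194741 to 208579 with CDO1 against 144960 to 153592 in mock. KRT8 made up most of that sum, with a mean of 122713 against 86833. The sums of fibroblast markers (130 to 152 against 204 to 294, over the 3 of 7 that were measured), leukocyte markers (33.1 to 49.3 against 38.0 to 77.1) and endothelial markers (117 to 132 against 62.2 to 129) were low in both groups, and their part in the results below was not tested.

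The cytosolic ribosome reads mRNA in its small subunit and joins amino acids in its large subunit, and the P-stalk of the large subunit recruits elongation factors. Each subunit holds 1 copy of most of its proteins, and these are made in step with ribosomal RNA. Most ribosomal protein mRNAs begin with a C followed by a run of pyrimidines, the terminal oligopyrimidine or TOP motif, through which mTOR and the RNA-binding protein LARP1 control their translation. Free RPL5 and RPL11 bind MDM2, the ligase that marks p53 for breakdown.

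Many of these genes share a kind of start, shown here for 11 of the 13 members whose counts moved (RPL23A and RPL37 had no matching entry) and for a pair of paralogs. Each window holds 15 bases before the annotated start and 15 bases from it on, read 5′ to 3′ on the gene's strand, from RefSeq on GRCh38.p14. Capitals mark a C at the start with the pyrimidines (C or T) that follow it, where there are at least 4. RPS27A has other annotated starts, not printed, that lack such a run.
RPS27A, chr2:55232673-55232702, plus strand: tgcgcggcgttcttcCTTTTCgatccgcca
RPL27A, chr11:8682777-8682806, plus strand: ttggcgaaggccttcCTTTTTCgtctgggc
RPS14, chr5:150449725-150449754, minus strand: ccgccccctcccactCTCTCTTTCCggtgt
RPL12, chr9:127451392-127451421, minus strand: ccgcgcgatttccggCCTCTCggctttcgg
RPL24, chr3:101686704-101686733, minus strand: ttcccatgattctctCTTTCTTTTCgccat
RPL26, chr17:8383179-8383208, minus strand: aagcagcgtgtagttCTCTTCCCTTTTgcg
RPL29, chr3:51995881-51995910, minus strand: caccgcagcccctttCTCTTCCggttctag
RPS24, chr10:78033848-78033877, plus strand: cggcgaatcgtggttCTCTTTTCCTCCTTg
RPS23, chr5:82278340-82278369, minus strand: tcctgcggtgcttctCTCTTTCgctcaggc
The 1 member that fell, RPS23, has the same kind of start as members that rose. RPL27 and RPS15, which also rose, have no such run at their annotated start.
RPL27, chr17:42998404-42998433, plus strand: ccggggtgaaaggttagcggaagtgtcctt
RPS15, chr19:1438381-1438410, plus strand: tgcgcaggcgcggaccaaagcgatctcttc
The paralogs RPS27 and RPS27L show the run in one copy only.
RPS27, chr1:153990747-153990776, plus strand: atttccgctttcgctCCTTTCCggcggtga
RPS27L, chr15:63157463-63157492, minus strand: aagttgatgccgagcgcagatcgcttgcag

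RefSeq windows were matched for 63 of the 78 members, by symbol, and a gene counted as having the run if any of its starts did. The run was found in 46 of the 63 (73.0%), against 1404 of 27305 genes with a window (5.14%). CGGAAG, a short motif that ETS factors bind, was searched on both strands from 250 bases before to 50 after the start, where its reverse complement can share bases with the pyrimidine run. It was present in 41 of the 63 members (65.1%) and in 22.6% of all genes. Members with the run had a median log2 fold change of 0.09 (n = 46), and those without it one of 0.09 (n = 17).

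Differences across the family were small. With CDO1, 12 of the 78 members rose, 1 (RPS23) fell and 65 did not pass (limma on log2 of the normalised count plus 1, Benjamini-Hochberg adjusted p of 0.05 over 21775 genes). Across all genes tested 24.0% passed, 11.3% higher and 12.7% lower. The share of members that rose, 15.4%, was thus near the background, while 1.28% of members fell. Among genes with a mean of at least 20, tested alone, 19.0% rose and 19.1% fell, and there 17 members rose and 1 fell. The log2 fold change was above 0 in 66 members (84.6%), against 49.5% of all genes and 51.8% of genes with a mean of at least 20. Its median was 0.09 over the members (quartiles 0.03 and 0.13), -0.0035 over all genes and 0.011 over genes with a mean of at least 20. Members measured in the same library are not independent, so 66 of 78 is not a count of separate results. Rises past the threshold lay between 10.4% and 27.8%. Normalised counts are relative within a library, so mRNA per cell was not measured, and fewer cells of a type and less RNA per cell cannot be told apart.

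**Figure D1:**
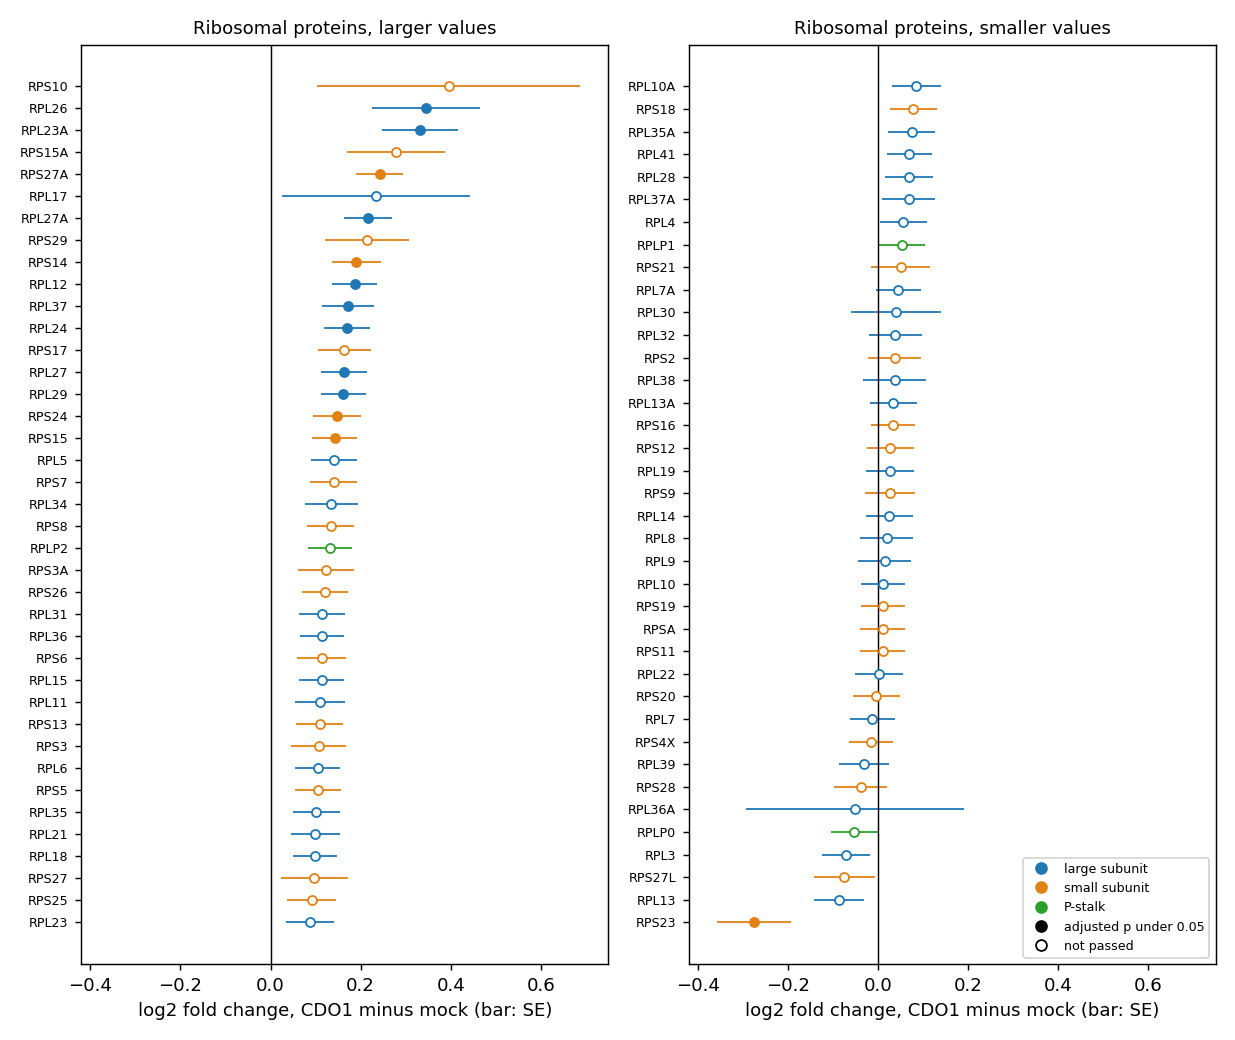
Log2 fold change of the members, 1 gene left out (CDO1 minus mock, x axis; bars are the standard error), coloured by subunit and filled where the adjusted p was under 0.05, in 2 panels ordered by size. Most points lie to the right of 0, 12 filled points lie above it and RPS23 alone is filled below it.

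Among small-subunit proteins, 4 of 32 rose (12.5%) and 1 fell, with a median log2 fold change of 0.10. Across all genes tested, 11.3% rose and 12.7% fell. RPS27A, made as a fusion of ubiquitin with a ribosomal protein, had normalised counts of 21725, 21450 and 21811 with CDO1 and of 18539, 17110 and 19365 in mock. All 3 CDO1 libraries lay above all 3 mock libraries, and the mean was 18.1% higher (log2 fold change 0.24, SE 0.053, adjusted p = 0.0019 by limma). RPS14, a protein of the small subunit's platform, had 16731, 17528 and 15882 against 14352, 14021 and 15582. Its groups did not overlap and its mean was 14.1% higher (adjusted p = 0.014 by limma). RPS24, a protein whose gene is mutated in Diamond-Blackfan anaemia, had 15853, 16454 and 15881 against 14319, 13688 and 15520, and RPS15 had 20214, 20924 and 21621 against 19598, 18418 and 18852. Both rose without overlap, RPS24 by 10.7% (adjusted p = 0.048) and RPS15 by 10.4% (adjusted p = 0.046, limma), which is close to the threshold.

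RPS23, a protein of the decoding centre, was the member that fell. Its normalised counts were 580, 582 and 490 with CDO1 and 665, 610 and 725 in mock, without overlap, and the mean changed by -17.4% (log2 fold change -0.28, SE 0.082, adjusted p = 0.018 by limma). The table gives it a mean far below that of most members, which is described with the levels.

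Of the large-subunit proteins, 8 of 43 rose (18.6%) and none fell, with a median of 0.08. In the same fit 11.3% of all genes rose, and 17.3% of those with a mean of at least 20. RPL27A had 30238, 30415 and 31004 with CDO1 and 25952, 24939 and 28076 in mock. Its groups did not overlap, and the mean was 16.1% higher (log2 fold change 0.22, SE 0.054, adjusted p = 0.0050 by limma). RPL12, a protein at the base of the P-stalk, had 32884, 32415 and 33674 against 28681, 28373 and 29882. Again no CDO1 library fell among the mock ones, and the mean was 13.8% higher (adjusted p = 0.0089 by limma). RPL24 had 16956, 16833 and 16113 against 14487, 14307 and 15579, a rise of 12.5% without overlap. RPL27 had 16369, 17211 and 15926 against 14460, 14426 and 15323, a rise of 0.16 on the log2 scale. RPL29 had 19541, 20981 and 20351 against 18557, 17493 and 18351, a rise of 11.9%. The groups of RPL27 and RPL29 did not overlap either. RPL37 had 11448, 13270 and 12096 against 10508, 10557 and 11576, so that mock replicate 3 lay above CDO1 replicate 1 although the mean was 12.8% higher (adjusted p = 0.036 by limma).

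RPL23A and RPL26, neighbours at the exit of the ribosome's peptide tunnel, had the largest rises past the threshold and low counts. RPL23A had 894, 954 and 777 with CDO1 and 725, 612 and 749 in mock, all 3 CDO1 libraries being higher, and the mean was 25.9% higher (log2 fold change 0.33, SE 0.084, adjusted p = 0.0057 by limma). RPL26 had 308, 378 and 262 against 212, 256 and 274, which overlap, and the mean was 27.8% higher (SE 0.120, adjusted p = 0.042 by limma). Pseudogenes named after RPL23A held normalised counts that came to 52.8% of its own, and those of RPL26 summed to a mean of 81.5. With these counts added to their genes neither passed: RPL23A gave 0.18 (adjusted p = 0.096) and RPL26 0.26 (adjusted p = 0.079, limma). The alternative was added after the data had been seen.

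**Figure D2:**
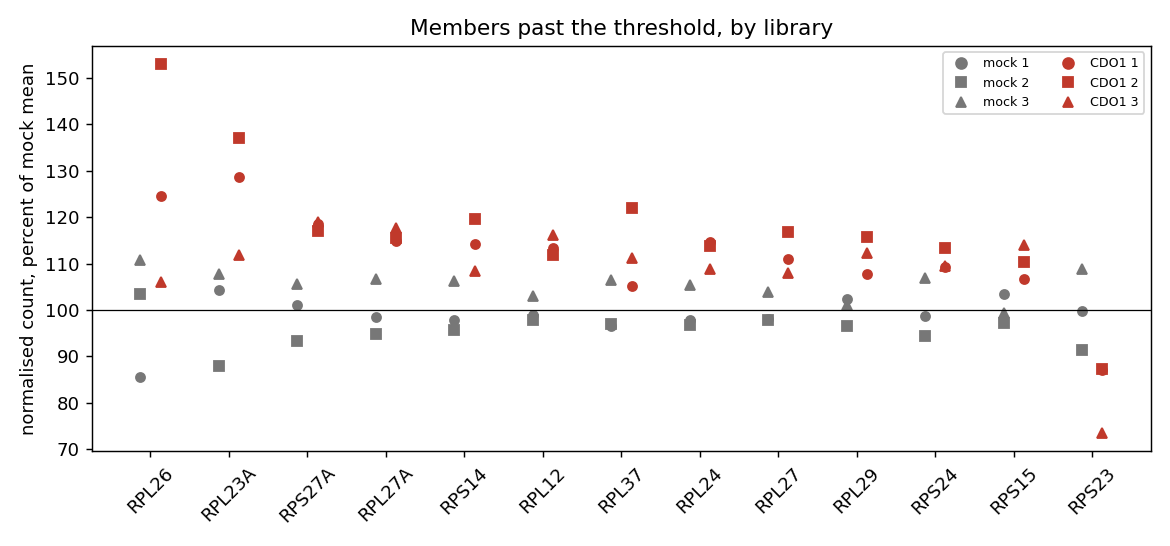
Normalised count of the 13 members past the threshold in each library (y axis, percent of the gene's mock mean; grey mock, red CDO1; circles, squares and triangles are replicates 1, 2 and 3). RPS23 is the member whose red points lie below the grey ones, and only RPL26 and RPL37 have groups that overlap.

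None of the P-stalk proteins passed in limma. RPLP0, the stalk's base, had 61002, 62113 and 62849 with CDO1 and 63334, 64538 and 64927 in mock. Its groups did not overlap, yet the difference was -3.54% (log2 fold change -0.05, adjusted p = 0.53 by limma). RPLP1 had 23872, 25929 and 24041 against 24122, 22749 and 24284 (log2 fold change 0.05), which overlap. RPLP2, its partner in the stalk, had 21214, 21759 and 20646 against 19524, 18762 and 19784, without overlap and 9.56% apart (adjusted p = 0.060 by limma). It passed in 7 of the 22 other settings, edgeR with TMM (adjusted p = 0.032) and DESeq2 (adjusted p = 0.017) among them.

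RPL5 and RPL11, which can bind MDM2, were both higher on average without passing in limma. RPL5 had 26371, 25949 and 26863 with CDO1 and 23944, 22889 and 25060 in mock (log2 fold change 0.14, adjusted p = 0.054 by limma), with no overlap. RPL5 did pass in 9 of the 22 other settings, among them edgeR with TMM (adjusted p = 0.026), DESeq2 (adjusted p = 0.016) and the authors' deposited table (adjusted p = 0.017). RPL11 had 16284, 18044 and 16319 against 15348, 15037 and 16543 (log2 fold change 0.11, adjusted p = 0.17), which overlap. MDM2 itself fell, from 1311 ± 87.1 to 1010 ± 60.7 (SD, n = 3 each; log2 fold change -0.38, adjusted p = 2.0e-04 by limma). Over all members the groups did not overlap in 23 higher and 2 lower genes (RPS23 and RPLP0), against 18.3% and 18.9% of all genes.

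Of the members that did not pass, RPS10, RPS15A and RPL17 had the largest positive differences. RPS15A had 547, 589 and 429 with CDO1 and 425, 371 and 491 in mock (log2 fold change 0.28, adjusted p = 0.069 by limma), which overlap. RPS10 and RPL17 rest on few counts and are given with the levels. Negative differences included those of RPL13 and RPS27L. RPL13 had 41289, 39610 and 43719 with CDO1 and 44568, 45447 and 42181 in mock (log2 fold change -0.09). RPS27L had 862, 815 and 912 against 928, 845 and 953 (log2 fold change -0.07). For both the groups overlapped. In all, 43 members that did not pass lay within 0.1 of 0 on the log2 scale.

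Single libraries set how many members passed. The median deviation of the members from their own 6-library means, on the log2 scale, was 0.02 for replicate 1 of the CDO1 group, 0.08 for replicate 2 and 0.01 for replicate 3. In the mock group it was -0.05 for replicate 1, -0.09 for replicate 2 and 0.02 for replicate 3. The means of these medians were 0.039 with CDO1 and -0.041 in mock, and the groups overlapped (exact permutation test, two-sided, p = 0.2). Mock replicate 3 thus lay on the CDO1 side, with 49 of 78 members above their own mean, against 7 and 13 in mock replicates 1 and 2. In 28 members it exceeded the CDO1 mean. CDO1 replicate 2 was the highest library in 43 members and mock replicate 2 the lowest in 41. Without mock replicate 3, 27 members rose, and without mock replicate 1, 2 did. With replicate 1 of the CDO1 group left out 6 rose, with its replicate 2 left out 3, with its replicate 3 left out 9, and with mock replicate 2 left out 8. The shares of all genes given above come from fits to all 6 libraries. For the fits with 1 library left out no such share is given, so these counts show only how the calls moved. RPS23 did not pass without CDO1 replicate 3, mock replicate 1 or mock replicate 3. RPS27A passed in all of the 22 other settings tried, and RPL27A in 21, the exception being the fit without mock replicate 1. RPS15 and RPS24 were the least stable of those that rose, and each did not pass in 13 of the 22.

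**Figure D3:**
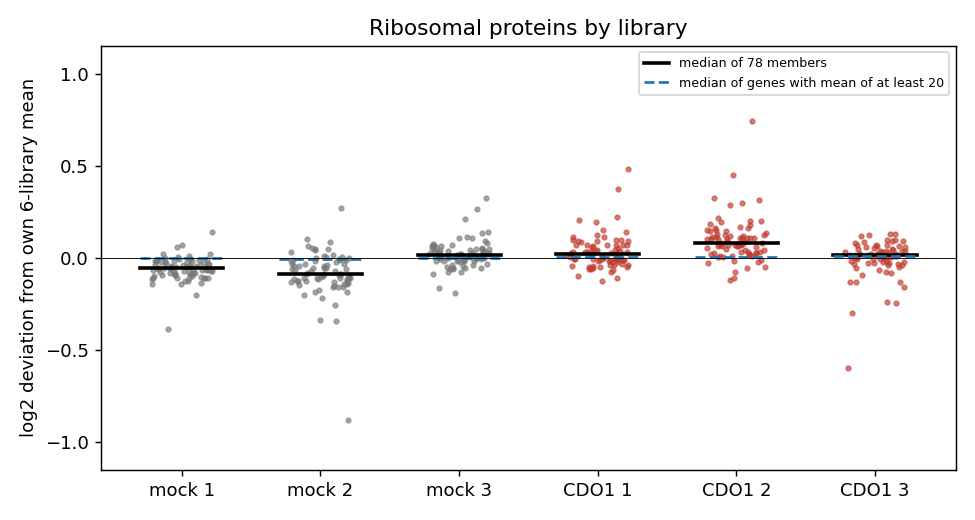
Deviation of each of the 78 members from its own mean over the 6 libraries (y axis, log2; 1 point per gene) in each library, with the members' median as a black bar and the median of all genes with a mean of at least 20 as a dashed line. Mock replicates 1 and 2 sit below 0 at -0.05 and -0.09, whereas mock replicate 3 sits at 0.02 beside the CDO1 libraries.

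The libraries also differed in base composition. Spearman's rho between a gene's GC content and its deviation, over genes with a mean of at least 20, was -0.27, 0.0049 and -0.24 in the CDO1 libraries and 0.18, 0.45 and -0.19 in the mock libraries, mock replicate 3 again lying with the CDO1 side. Split by GC content into groups of 26, members had median log2 fold changes of 0.11 (lowest GC), 0.08 and 0.06 (highest GC). With each library's trend with GC content removed, the median over the members was 0.05, 55 were above 0, 17 rose and 2 (RPLP0 and RPS23) fell. RPL26, RPL37 and RPS24 did not pass in that fit. Scaling to equal library totals gave a median of 0.06, with 6 members higher and 1 lower. The shares of all genes that passed in these fits are not given here. The median over all genes moved too, to -0.029 at equal library totals and -0.022 with the GC trend removed. The members' median thus stood 0.089 and 0.073 above that of all genes, against 0.090 in the main fit. Against genes with a mean of at least 20, fitted alone, the gap was 0.076.

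As a share of all gene reads, the members held 7.86%, 8.15% and 7.85% in the CDO1 libraries and 7.68%, 7.66% and 7.96% in the mock libraries. Exact 95% binomial intervals reached at most 0.013 percentage points to either side and cover counting error only. The mean was 7.95% ± 0.171 with CDO1 and 7.76% ± 0.167 in mock (SD, n = 3 each), and the groups overlapped (exact permutation test, two-sided, p = 0.3). Reads of small-subunit genes divided by those of large-subunit genes, the P-stalk included, gave 0.657, 0.663 and 0.651 with CDO1 and 0.645, 0.649 and 0.647 in mock. These groups did not overlap, and the exact two-sided permutation p of 0.1 is the smallest that 3 against 3 libraries can give. Without RPS2, the most abundant member, the groups overlapped (exact p = 0.2).

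Levels differed far more between members than between groups. Per kilobase of the median protein-coding transcript, the median member had a normalised count of 26054, and 63 of 78 lay between 10000 and 60000. RPS2 was highest with 105351, followed by RPL8, RPLP0, RPL13 and RPS18 at 80104, 74574, 60115 and 56952. The 5 members with the highest normalised counts held 20.3% of the family's total. Levels in the CDO1 and mock groups ranked the members alike (Spearman's rho 0.996 across 78 genes, which are not independent replicates).

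At the other end, RPS10, RPL36A and RPL17 stood at 56.4, 58.4 and 59.6 per kilobase. RPL26, RPS15A, RPS23, RPS27L, RPL23A and RPL30 followed at 499, 521, 656, 1096, 1234 and 1853, and the next member, RPS26, stood at 7655. RPS27L is a stress-linked paralog of RPS27. The other 8 encode core proteins of the ribosome. Genes named as readthroughs overlap 3 of them on the same strand in GENCODE. RPS10-NUDT3 covers 39.4% of the exonic bases of RPS10, and RPL17-C18orf32 covers 24.8% of those of RPL17. RPL36A-HNRNPH2 covers 8.40% of those of RPL36A. Other protein-coding genes on the same strand overlap RPL26 (AC135178.2, 14.3% of its exonic bases) and RPS15A (AC138811.2, 3.26%). None of the 3 readthrough genes was found by name among the 27134 genes measured, and AC135178.2 and AC138811.2 were not analysed here. Pseudogenes named after RPL17 and RPL36A held 9.03 and 9.62 times the counts of the genes themselves, and those of RPS10 held 1.42 times.

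RPS10 had 37.5, 59.1 and 29.4 with CDO1 and 34.1, 18.5 and 44.1 in mock, which overlap (log2 fold change 0.40, SE 0.292, adjusted p = 0.38 by limma). RPL17 had 58.2, 41.6 and 37.7 against 41.2, 37.1 and 36.2, and RPL36A had 51.3, 43.8 and 25.7 against 38.5, 47.8 and 35.1. None of these differences was detectable at this depth. The summed counts of RPL17 and its pseudogenes, most of them from the pseudogenes, had a log2 fold change of 0.37 (adjusted p = 0.0022 by limma). RPL17 alone gave 0.23 (adjusted p = 0.48, limma). The same sums for RPS10 and RPL36A gave 0.13 (adjusted p = 0.65) and 0.14 (adjusted p = 0.25).

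**Figure D4:**
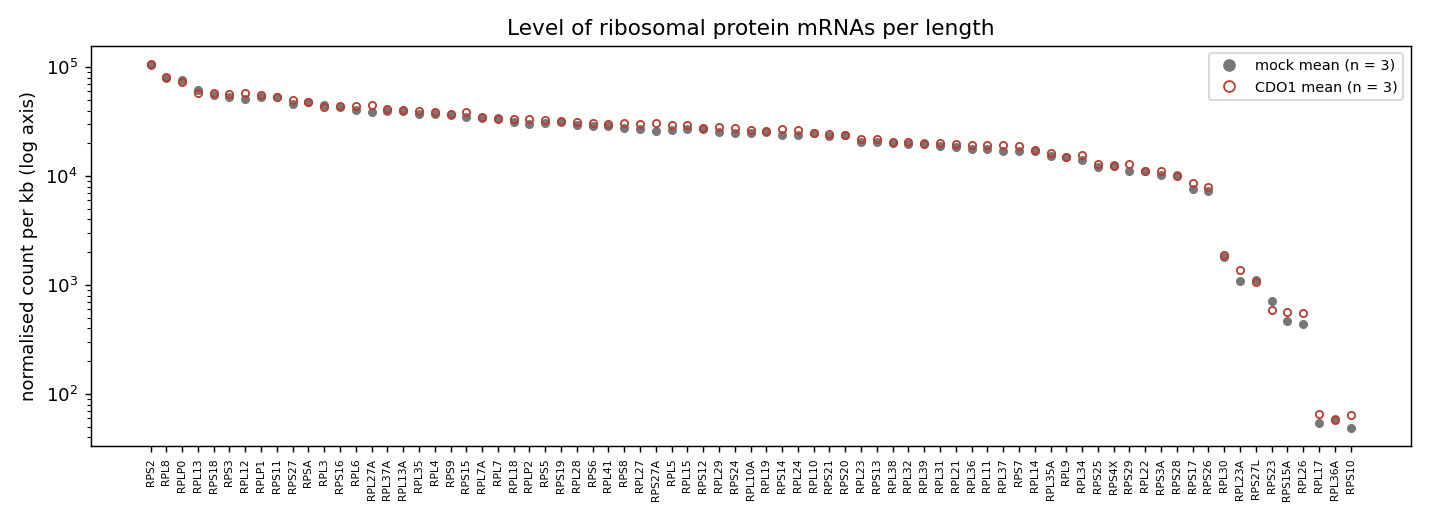
Normalised count per kilobase of transcript for the members, 1 gene left out, in order of level, with mock and CDO1 means on a log axis. Most members lie between 10000 and 60000, and 9 stand at 1853 or below, of which RPS10, RPL36A and RPL17 lie at 59.6 or below.

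Paralogs outside the name rule were measured beside their partners. RPL36AL, the autosomal copy of RPL36A, rose from 3847 ± 140 to 4583 ± 504 (SD, n = 3 each; log2 fold change 0.25, adjusted p = 0.0069 by limma). RPL7L1 rose from 5322 ± 102 to 5976 ± 108 (adjusted p = 0.014), while RPL7 did not pass (log2 fold change -0.01). RPL26L1 and RPL22L1 did not pass (0.09 and 0.06). Of their partners RPL26 gave 0.35 and passed, and RPL22 gave 0.0027, with the sign turning at equal library totals and with the GC trend removed. RPL3, RPL10, RPL39 and RPS27, whose copies are known from testis, muscle or stress, gave -0.07, 0.01, -0.03 and 0.10, and none passed (RPL10 turned to -0.02 at equal library totals). A difference between the copies of a pair was not tested.

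Ribosomal components with other names were measured too. RACK1, the scaffold of the small subunit, gave a log2 fold change of 0.12 (adjusted p = 0.094 by limma) and FAU gave 0.01 (adjusted p = 0.92).

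In the main fit, 17.3% of genes with a mean of at least 20 rose and 17.9% fell, a background for the lists that follow. Other TOP mRNAs and elongation factors were mostly not past the threshold: 4 of 19 tested rose (21.1%) and none fell, with a median of 0.06. The 4 were TPT1, a small growth-related protein, at 0.21, BTF3, part of the nascent-chain complex, at 0.16, NAP1L1, a histone chaperone, at 0.15, and the initiation factor subunit EIF3F at 0.14. NAP1L1 and EIF3F were close to the threshold (adjusted p = 0.046 and 0.048 by limma). Of the 22 other settings, TPT1 did not pass in 4, BTF3 in 10, NAP1L1 in 11 and EIF3F in 12. Among 48 ribosome biogenesis factors 3 rose and 2 fell (median 0.04). SBDS, which helps free the large subunit for translation, rose by 0.32 (adjusted p = 0.0010), and the helicase DDX21 by 0.22. BOP1, a large-subunit assembly factor, gave -0.30, and RRP9, a part of the U3 particle, gave -0.24. Of 15 genes of the RNA polymerase I machinery, 3 rose and 2 fell (median -0.0076). The initiation factor RRN3 fell from 1616 ± 65.7 to 1222 ± 63.9 (log2 fold change -0.40, adjusted p = 3.1e-05 by limma) and TAF1C from 2249 ± 320 to 1606 ± 50.6 (log2 fold change -0.48). POLR1D rose by 0.26 and POLR1A, the largest catalytic subunit, by 0.16.

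Regulators of ribosomal protein synthesis went both ways, 3 of 21 rising and 4 falling (median 0.0036). LARP1, which binds the TOP motif, rose from 11227 ± 102 to 12695 ± 434 (log2 fold change 0.18, adjusted p = 0.010 by limma). RPTOR and MLST8, subunits of the mTOR complex, fell, with -0.35 (adjusted p = 1.0e-04) and -0.20 (adjusted p = 0.012). MYC, a driver of ribosome production, was at -0.14 and did not pass (adjusted p = 0.054). It did pass in 12 of the 22 other settings, with values from -0.18 to -0.12 over all 22. Of 17 genes of ribosome quality control and chaperones, 5 rose (29.4%) and 1 fell (median 0.09). LTN1, the ligase that tags chains stalled on ribosomes, had the highest value at 0.55 (adjusted p = 6.4e-06), and RNF10, a ligase acting on small-subunit proteins, rose by 0.33.

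The mitochondrial ribosome, built from other genes, serves for comparison. Of its 78 measured proteins 12 rose (15.4%) and 5 fell (6.41%), with a median log2 fold change of 0.04 and 43 above 0. Its members reached larger changes than most cytosolic ones: MRPS21 fell from 1013 ± 43.3 to 706 ± 44.1 (log2 fold change -0.52, adjusted p = 5.2e-06 by limma), and MRPS6 rose from 447 ± 17.4 to 595 ± 12.7 (0.41, adjusted p = 1.6e-04). The difference between the mitochondrial and the cytosolic family was not tested.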

How the data were processed

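Total RNA of 6 libraries, 3 per group, was compared by RNA sequencing. Per the submitters' processing notes, STAR 2.5.1b, DESeq2 1.10.1 and GRCh38 were used. The counter, the annotation and the strand setting were not given in the sources used here, so overlapping and antisense genes may share reads. The signal columns deposited by the authors are gene counts divided by a size factor per library, and all values came out as whole reads (within 0.001) once rescaled. The deposited table also holds the authors' log2 fold change and p-value, used only as an alternative.

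limma 3.58.1 (trend) was run in R 4.3.3 with log2(normalised count + 1), over the 21775 genes whose mean was 1 or more. edgeR 4.0.16 and DESeq2 1.42.0 on recovered reads were alternatives. Only the limma fit was tested on simulated data, with a spread set by hand and fold changes larger than those of the members, so that test does not bear on how many changes of the members' size would be found. Biotype, coordinates, length and GC content came from GENCODE 29, which holds 26742 of the identifiers. Length is the median over protein-coding transcripts, chosen after other measures gave implausible lengths for a few genes, with counts already seen. Exact permutation tests served single values.

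Members and lists were chosen with earlier results of these data known. The genes named are members past the threshold, the 5 highest and lowest per kilobase, the 3 largest rises and falls not past it, those with a paralog, RPL5 and RPL11, and up to 4 genes of each list with the smallest p. RPLP1, RPLP2, RACK1, FAU, MYC, RPS26, RPL30 and the pseudogenes are named beyond that rule, chosen after their values were seen. Results for 2 genes are not reported here.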

Additional observations from a re-analysis of the deposited data

How the results depend on the processing

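The median log2 fold change of the members stayed above 0 in all 21 refits (0.05 to 0.11), and no member past the threshold changed sign. Counts of calls moved more, and the shares of all genes that passed in the same refits are not given here. With the replicate number as a block, 25 members rose (13 large, 11 small, 1 P-stalk). The numbers were not taken to pair the libraries, and correlations of the libraries' deviations do not decide whether they do. Same-numbered libraries had correlations of 0.029, 0.15 and 0.041. CDO1 replicates 2 and 3 correlated best with the mock library of their own number, and CDO1 replicate 1 with mock replicate 3 (0.062). Leaving out each library in turn gave 2 to 27 members higher (large 1 to 14, small 1 to 12, P-stalk 0 to 1), 0 to 1 lower (small 0 to 1), and 14 to 38 higher and 11 to 17 lower in the other pathway lists. Equal library totals, equal totals without ribosomal protein and mitochondrial genes, and the length trend removed each gave 6 members higher (4 large, 2 small), and the last gave 21 higher in the other lists. edgeR with library totals, no filter and a pseudocount of 5 gave 2 small-subunit genes higher. edgeR with TMM, DESeq2, the authors' deposited adjusted p and the filter at a mean of 20 gave 7, and 1 P-stalk gene (RPLP2) higher. edgeR with TMM and DESeq2 each called 17 members higher, sharing 12 and 11 with limma. With the GC trend removed 2 members fell, 1 P-stalk gene rose and 1 fell, and 31 genes of the other lists fell. An adjusted p of 0.01 left 4 members higher (3 large, 1 small) and 0 lower (small subunit 0), 15 higher in the other lists, and 1543 of all genes higher.

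Signs turned only for genes that did not pass. The values below are those of genes named in this report, and further members turned as well. Members above 0 numbered 66 in the main fit and 58 at equal library totals. They numbered 57 by edgeR with library totals and 55 with the GC trend removed. At equal library totals the log2 values were RPL8 -0.0064, RPL10 -0.015, FAU -0.015 and RPL22 -0.024. At equal totals without ribosomal protein and mitochondrial genes they were -0.0051, -0.014, -0.014 and -0.023, and by edgeR with library totals -0.0052, -0.016, -0.016 and -0.023. The GC trend removed gave RPLP1 -0.0020, RPL22L1 -0.0026, RPL10 -0.010, FAU -0.0038 and RPL22 -0.046, and the length trend removed gave RPL8 -0.0062, FAU -0.020 and RPL22 -0.0065. Summed with its pseudogenes, which hold most of that sum, RPL36A turned to 0.14. Without 1 library the values ranged from -0.027 to 0.056 for FAU, -0.042 to 0.035 for RPL22, -0.25 to 0.23 for RPL36A, -0.033 to 0.018 for RPL7, -0.034 to 0.052 for RPL8, -0.015 to 0.026 for RPL10, -0.070 to 0.019 for RPL39 and -0.022 to 0.16 for RPS27. The causes were not tested.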

Other observations

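Processed copies of ribosomal protein genes were also measured. Of 450 pseudogenes named after members, 226 were tested, 14 rose, 2 fell, and the median log2 fold change was 0.15 (limma). Of all genes tested, larger shares rose (11.3%) and fell (12.7%). RPS2P5 had the highest mean normalised count, 20689, with a log2 fold change of 0.09 (adjusted p = 0.40). RPL13P12 rose by 0.45 on the log2 scale (adjusted p = 1.5e-04), while its parent RPL13 was at -0.09 and did not pass. RPL6P27 and RPL29P4 rose by 0.34 each. Pseudogene and parent share much of their sequence, so how their reads were divided depends on the alignment and counting.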
